A study of Homo sapiens with 6 samples.

Results

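The 9 genes described here encode complement components and regulators, C3, CFB, CFI, C1R, C1S and C4BPB with secreted products and CD46, CD55 and CD59 with products that stay on the membrane. They were chosen by symbol from the 25442 genes of the table, and all 9 were found in it. Complement is a cascade of plasma and cell-surface proteins in which a few serine proteases (C1r, C1s, factor B) lead to cleavage of C3, whose larger fragment attaches to nearby membranes and can end in a lytic pore. Cells protect themselves with membrane regulators, of which CD55 and CD46 act on the C3-cleaving step and CD59 blocks assembly of the pore. The liver makes most circulating complement, but epithelial cells, pancreatic cancer cells included, also express several components and carry the membrane regulators.

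The libraries were made from YAPC, a human pancreatic ductal adenocarcinoma line. Cells carried rtTA, the doxycycline-responsive activator, and the pRetroX-Tight-Puro vector, either empty (iEV) or with human GLI2 (iGLI2). Both lines received Dox for 6 days, so the iEV libraries control for Dox and for the vector, and GLI2 was driven by the inducible promoter and not by its own. Each group had 3 libraries. Whether each line is 1 clone, and whether the 3 libraries came from separate cultures, is not given in the sources used here, so p-values measure the spread between these libraries, which may be technical.

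The values are read as FPKM, a fragment count normalised for how long a transcript is and how many fragments a library holds. Levels can therefore be compared between genes, but the number of fragments behind each value is unknown. A comparison between libraries also rests on the scaling, which is not given in the sources used here. The small RNA gene MIR4461 alone held 42.65 to 45.39% of all FPKM in iEV libraries and 35.71 to 37.67% in iGLI2 libraries. GLI2 was near 0 in iEV cells (0.344 to 0.466 FPKM), and replicates 1, 2 and 3 of iGLI2 cells stood at 94.5, 207 and 195 FPKM. The labels of all 6 libraries thus fit the level of the introduced gene, which was lowest in replicate 1 among the iGLI2 libraries. Of 5 epithelial markers, KRT19 was between 521 and 682 FPKM, while KRT8 and KRT18 were listed at 0 in all 6 libraries. These entries carry the same span, 53290971 to 53346685 on chromosome 12. Whether their 0 is a measured level is not given in the sources used here. EPCAM rose from 405 to 523 FPKM (log2 fold change 0.37, limma adjusted p = 0.00709) and CDH1 from 53.2 to 68.9 FPKM (0.37, limma adjusted p = 0.0169), and the sum of the 5 was between 1025 and 1156 FPKM in iEV and between 1111 and 1173 FPKM in iGLI2 libraries. Of 6 hepatocyte markers none reached 1 FPKM on average, and their summed level was between 0.701 and 1.15 FPKM. Of 6 leukocyte markers, PTPRC was at or near 0 and CD14 and CD68 held most of the sum, which was between 7.64 and 8.58 FPKM in iEV and between 4.23 and 5.32 FPKM in iGLI2 libraries. CD14 itself fell from 4.64 to 1.62 FPKM (log2 fold change -1.11, limma adjusted p = 0.00274). Of 6 fibroblast markers only COL1A1 reached 1 FPKM, and it rose from 1.41 to 2.69 FPKM (log2 fold change 0.61, limma adjusted p = 0.0110). The sum of the 6 was between 1.36 and 1.57 FPKM in iEV and between 2.31 and 3.02 FPKM in iGLI2 libraries. The libraries are of a cell line, and the markers do not count cells of other types. Their part in the results was not tested. In bulk libraries fewer cells that express a gene and less of its RNA per cell cannot be told apart.

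Replicate 1 stood apart from replicates 2 and 3 in both groups. Over the 12493 genes that averaged 1 FPKM or more and entered the test, the median absolute difference in log2(FPKM + 1) between libraries was 0.067 for iEV replicates 2 and 3, against 0.14 for either of them and replicate 1. In iGLI2 cells it was 0.055 between replicates 2 and 3, against 0.21 and 0.22 with replicate 1. The 6 complement genes tested are therefore given for 3 against 3 libraries, and again for 2 against 2 without both replicates 1, a comparison chosen after the data were seen. For other genes named with a test result, the second comparison is given where it changes a call.

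CD46 was the most abundant of the 9 genes in both groups, followed by CD59, CD55, CFB, C3, C4BPB, C1S, C1R and CFI. In iEV cells the ranges of neighbours in this order overlapped for C3 and C4BPB and for C1R and CFI. Within each iEV library, however, C3 was above C4BPB and C1R above CFI. In iGLI2 cells the ranges overlapped for CD55 and CFB, C3 and C4BPB, and C1S and C1R, pairs whose order varied between libraries. The 3 membrane regulators summed to 217, 190 and 191 FPKM in iEV replicates 1, 2 and 3 and to 190 and 184 FPKM in iGLI2 replicates 2 and 3, with a higher sum in iGLI2 replicate 1. The 6 secreted components summed to between 16.9 and 34.3 FPKM and between 13.8 and 26.6 FPKM, with the lowest sum of each group in replicate 1.

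**Figure D1:**
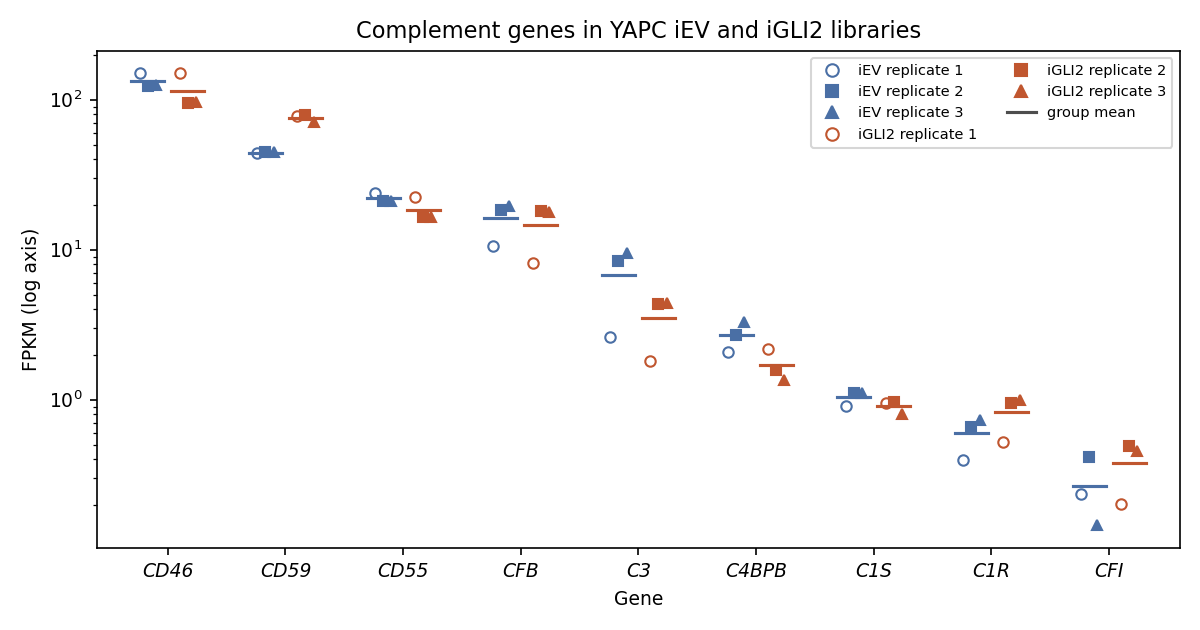
FPKM of the 9 complement genes on a log axis, ordered by mean level, with 1 point per library (open circles mark replicate 1) and a bar for the mean of each group of 3. CD59 is the gene whose groups lie apart, with iEV libraries between 43.9 and 45.0 FPKM and iGLI2 libraries between 70.7 and 78.8 FPKM, and replicate 1 lies below the other replicates for C3 and CFB in both groups.

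Of the 9 genes, 6 averaged 1 FPKM or more and were tested for a difference between iGLI2 and iEV cells, and C1S, C1R and CFI were below that level. At a limma adjusted p under 0.05, 1 of the 6 (16.7%) was higher in iGLI2 cells and none was lower. Over all genes tested, 21.9% passed in either direction, 10.1% as higher and 11.8% as lower, so the share among the complement genes was near that of all genes. Before adjustment, 4453 of the 12493 genes passed the same limma threshold, and of the complement genes C4BPB joined CD59. With both replicates 1 left out, 5 of the 6 passed, CD59 as higher and C3, C4BPB, CD46 and CD55 as lower. In that comparison 44.5% of all genes passed, 21.6% as higher and 22.8% as lower. Leaving out iGLI2 replicate 1 alone gave 4 (CD59 as higher, C4BPB, CD46 and CD55 as lower), where 30% of all genes passed. With the replicate number as a block, CD59 passed as higher and C3 as lower, where 31.4% of all genes passed, 14.5% as higher and 17% as lower. With no filter on low values CD59 alone of the 9 passed, where 15.1% of all genes passed, 7.44% as higher and 7.62% as lower. The median log2 fold change of the 6 was -0.25, beside -0.015 over all genes tested.

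**Figure D2:**
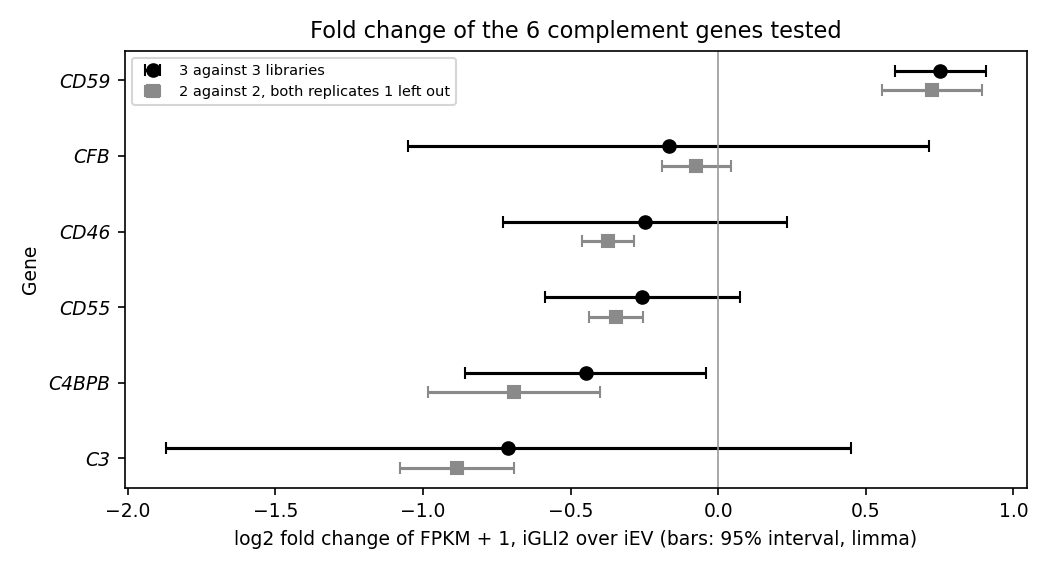
Log2 fold change in FPKM + 1 of the 6 genes tested, iGLI2 over iEV, with 95% intervals from limma for 3 against 3 libraries (black circles) and for 2 against 2 without both replicates 1 (grey squares). The interval of CD59 lies between 0.60 and 0.91, and those of C3, CD46 and CD55 include 0 with all libraries and exclude it without both replicates 1.

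Promoters, 250 bases before to 50 after a start, were taken from RefSeq on GRCh38.p14, another build than the hg19 of the table. They were found for 7 of the 9 genes, in 14 entries, and not for C3 and C1S. The GLI motif GACCACCCA, searched like the others on both strands, was in none of the 14, and is in 0.236% of the 35116 promoters of the table. The GAS motif TTCNNNGAA reads the same on both strands and is in 7.66% of all promoters, or for 9.38% of all genes with a promoter. It was found for C4BPB, CFB, C1R and CD59. The NF-κB motif, in 11.3% of all promoters and for 13.3% of all genes with a promoter, was found for CFB. A match is a description of letters and shows no binding. A promoter of CD59, the gene that rose, and that of CFB, a gene low in both replicates 1, are shown 5′ to 3′, with the motif matches in capitals. CD59 has 4 entries, and the one shown lies on the minus strand of chr11:33736430-33736729, with its GAS match at -128. The same match lies at -184 of an overlapping entry. The entries at chr11:33722900-33723199 and chr11:33722678-33722977 hold no match. The promoter of CFB, its only entry, lies on the plus strand of chr6:31945845-31946144, with the NF-κB match at -112 and the GAS match at -92.
CD59: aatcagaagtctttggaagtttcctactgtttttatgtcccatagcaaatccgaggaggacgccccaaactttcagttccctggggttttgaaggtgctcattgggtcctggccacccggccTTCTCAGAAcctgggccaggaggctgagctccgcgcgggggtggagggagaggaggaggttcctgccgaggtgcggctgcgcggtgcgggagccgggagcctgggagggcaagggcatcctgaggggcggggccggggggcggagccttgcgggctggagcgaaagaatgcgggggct
CFB: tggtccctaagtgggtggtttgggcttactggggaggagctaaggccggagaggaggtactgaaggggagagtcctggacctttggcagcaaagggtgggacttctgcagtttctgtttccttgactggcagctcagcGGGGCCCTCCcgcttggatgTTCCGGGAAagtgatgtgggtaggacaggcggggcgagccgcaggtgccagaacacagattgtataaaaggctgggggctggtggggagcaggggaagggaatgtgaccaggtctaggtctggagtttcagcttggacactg

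CD59 encodes protectin, a small glycoprotein held in the membrane by a glycosylphosphatidylinositol (GPI) anchor, which stops the last component from completing the lytic pore. The gene lies on chromosome 11 of hg19 from 33724556 to 33758025, on the minus strand. Its level was 43.9, 45.0 and 44.5 FPKM in the 3 iEV libraries (replicates 1, 2, 3) and 77.5, 78.8 and 70.7 FPKM in those of iGLI2. All iGLI2 libraries were above all iEV libraries, as was so in either direction for 42% of all genes tested, and replicate 1 did not stand apart. The means were 44.5 ± 0.573 and 75.7 ± 4.31 FPKM (SD, n = 3 each), a ratio of 1.70. Its log2 fold change, computed like all others from FPKM + 1, which makes the change of low genes look smaller, was 0.75 with a standard error of 0.063 (limma adjusted p = 0.00101), larger than the spread between replicates. It was 0.73 (standard error 0.062, limma adjusted p = 0.00257) without both replicates 1, and between 0.72 and 0.80 with each library left out in turn. Its adjusted p stayed at or under 0.00991 in every one of 18 alternatives.

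By the smallest root mean square difference between centred log2(FPKM + 1) profiles over the 6 libraries, the genes most like CD59, among those averaging 5 FPKM or more, were PKD2 (0.043), PELI2 (0.045) and NETO2 (0.048). PKD2, which encodes the cation channel polycystin-2, had 5.99, 6.25 and 5.94 FPKM in iEV libraries 1 to 3 against 11.1, 11.0 and 10.8 FPKM in iGLI2 libraries 1 to 3. PELI2 encodes a ubiquitin ligase of the Pellino family and averaged 4.64 and 8.72 FPKM in the 2 groups, a ratio of 1.88. NETO2, an auxiliary subunit of kainate receptors, averaged 29.6 and 47.8 FPKM, a ratio of 1.61.

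CD55 encodes decay-accelerating factor, a GPI-anchored protein that dissociates the C3-cleaving enzymes. It lies on chromosome 1 from 207494817 to 207534311, on the plus strand. The values were 23.9, 21.2 and 21.3 FPKM in the 3 iEV libraries (replicates 1, 2, 3) and 22.6, 16.4 and 16.5 FPKM in those of iGLI2. The groups overlap only through iGLI2 replicate 1, which lay within the iEV range. The log2 fold change was -0.26, with a 95% interval from -0.59 to 0.073 (limma adjusted p = 0.233). Without replicate 1 of either group it was -0.35 (standard error 0.034, limma adjusted p = 0.00346), and over all alternatives the adjusted p lay between 0.00346 and 0.477.

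CD46 encodes membrane cofactor protein, a transmembrane protein that helps factor I inactivate the C3 fragment. It lies on chromosome 1 from 207925383 to 207968861, on the plus strand. The values were 149.6, 123 and 125 FPKM in the 3 iEV libraries (replicates 1, 2, 3) and 149.9, 94.7 and 96.3 FPKM in those of iGLI2. Replicate 1 was the highest library of each group and had nearly the same level in both. The log2 fold change was -0.25 with a 95% interval from -0.73 to 0.23 (limma adjusted p = 0.427), and -0.37 (standard error 0.032, limma adjusted p = 0.00263) without both replicates 1. The adjusted p over all alternatives lay between 0.00263 and 0.715.

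Ratios of 2 genes within a library do not depend on how libraries were scaled to each other. With 3 libraries in each group, the smallest p of the exact two-sided permutation test is 0.1, and 4 ratios were tested. CD59 to CD46 was 0.293, 0.365 and 0.357 in iEV replicates 1, 2 and 3 and 0.517, 0.831 and 0.734 in iGLI2 replicates 1, 2 and 3. The iGLI2 ratios were higher in 3 of 3 libraries, with a log2 difference of 1.02 (exact permutation p = 0.1, the smallest possible, adjusted p = 0.2). CD55 to CD59 was 0.498 ± 0.0406 in iEV and 0.245 ± 0.0425 in iGLI2 cells (SD, n = 3 each), lower in 3 of 3 iGLI2 libraries, with a log2 difference of -1.04 (exact permutation p = 0.1, adjusted p = 0.2). CD55 to CD46 was 0.167 ± 0.00675 and 0.165 ± 0.0126 (SD, n = 3 each), a log2 difference of -0.020 that did not exceed the spread between replicates (exact permutation p = 0.9, adjusted p = 0.9). The message levels of CD55 and CD46 thus kept nearly 1 ratio in all 6 libraries, from 0.151 to 0.174, while the ratios with CD59 separated the groups.

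**Figure D3:**
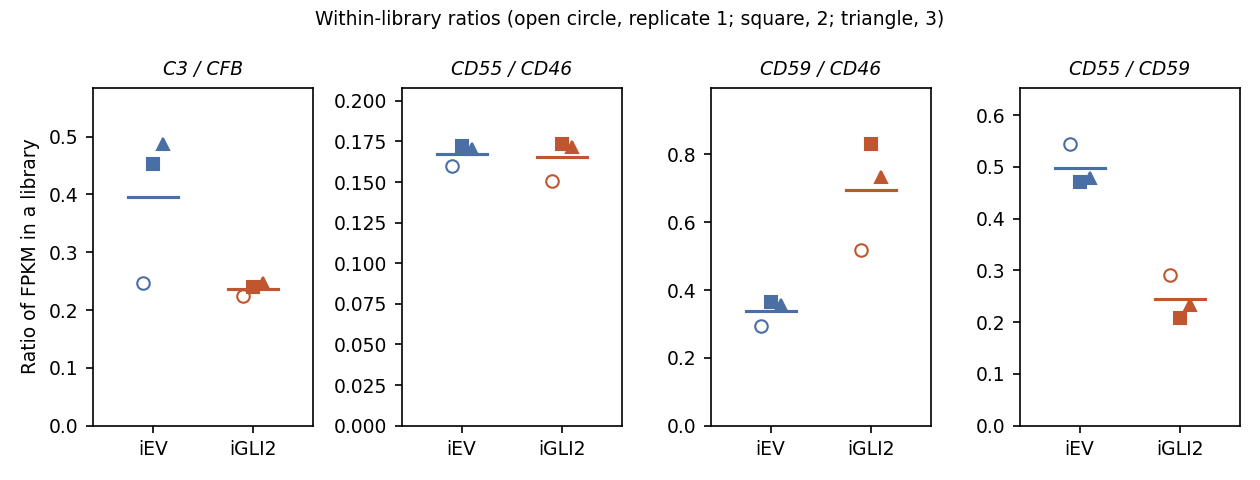
Within-library ratios of FPKM for 4 pairs of complement genes on linear axes from 0, with 1 point per library and a bar for each group mean. CD59 to CD46 and CD55 to CD59 have groups that do not overlap, CD55 to CD46 stays between 0.151 and 0.174 in all 6 libraries, and C3 to CFB is at 0.246 in iEV replicate 1, near the iGLI2 libraries.

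C3 is the central component on which all activation routes converge. The gene lies on chromosome 19 from 6677846 to 6720693, on the minus strand. It had 2.63, 8.37 and 9.50 FPKM in the 3 iEV libraries (replicates 1, 2, 3) and 1.82, 4.36 and 4.39 FPKM in those of iGLI2. Each iGLI2 library was below the iEV library of the same number, at 0.692, 0.521 and 0.462 of its level. The numbers were not taken to pair the samples, however. The groups overlap because iEV replicate 1 was lower than iGLI2 replicates 2 and 3. The means were 6.83 ± 3.69 and 3.52 ± 1.48 FPKM (n = 3 each, SD). Its log2 fold change of -0.71 had a 95% interval from -1.87 to 0.45 (limma adjusted p = 0.344). On replicates 2 and 3 alone it was -0.88 (standard error 0.071, limma adjusted p = 0.00222), a ratio of means of 0.490, and the adjusted p over all alternatives lay between 0.00222 and 0.643.

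CFB encodes factor B, the protease of the alternative route that forms the C3-cleaving enzyme together with the C3 fragment. It lies on chromosome 6 from 31913721 to 31919861, on the plus strand, and its 6 further entries on alternative haplotypes were all listed at 0. The level was 10.7, 18.5 and 19.5 FPKM in the 3 iEV libraries (replicates 1, 2, 3) and 8.12, 18.2 and 17.8 FPKM in those of iGLI2. In both groups replicate 1 was far below the others, and the groups overlap. The log2 fold change was -0.17 with a 95% interval from -1.05 to 0.72 (limma adjusted p = 0.775). It was -0.074 (standard error 0.043, limma adjusted p = 0.236) without both replicates 1 and turned to 0.19 (limma adjusted p = 0.628) without iGLI2 replicate 1 alone, and the adjusted p over all alternatives lay between 0.188 and 0.981. C3 to CFB was 0.246, 0.452 and 0.487 in iEV replicates 1, 2 and 3 and 0.224, 0.239 and 0.247 in iGLI2 replicates 1, 2 and 3. This ratio had a log2 difference of -0.68 (exact permutation p = 0.2, adjusted p = 0.267), and -0.95 without both replicates 1.

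For C3 and CFB the low library of both groups was replicate 1. In iEV cells replicate 1 had 0.294 of the mean C3 level of replicates 2 and 3, and in iGLI2 cells 0.415. For CFB the shares were 0.562 and 0.451. CD46 and CD55 went the other way, with replicate 1 at 1.21 and 1.12 of the others in iEV cells and at 1.57 and 1.37 in iGLI2 cells. For CD59 the shares were 0.980 and 1.04. C4BPB was lower in replicate 1 of iEV (0.699) and higher in that of iGLI2 cells (1.48).

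Of the acute-phase genes, which encode plasma proteins that rise in inflammation, 7 entered the test, and 4 of them were lower and none higher in iGLI2 cells, where 11.8% of all genes were lower. Their median log2 fold change was -0.80, beside -0.015 over all genes tested. SAA1, serum amyloid A, had 10.8, 39.9 and 41.3 FPKM in iEV libraries 1 to 3 against 1.63, 6.92 and 4.74 FPKM in iGLI2 libraries 1 to 3 (log2 fold change -2.47, limma adjusted p = 0.0396), and missed the threshold without the filter (limma adjusted p = 0.0559) and without iGLI2 replicate 1 (limma adjusted p = 0.0662). The merged entry of SAA2 and SAA4 (-2.04, limma adjusted p = 0.0222), SERPINA1, the antitrypsin gene (-1.51, limma adjusted p = 0.00214), and CP, the ceruloplasmin gene (-0.63, limma adjusted p = 0.00613), also fell. LCN2, PTX3 and SERPINA3 did not pass with all libraries (limma adjusted p = 0.810, 0.213 and 0.628). Replicate 1 of iEV and of iGLI2 cells had 0.267 and 0.279 of the SAA1 level of the others, 0.206 and 0.127 for SERPINA3, and 0.431 and 0.387 for LCN2, so these genes shared the low replicate 1 of C3 and CFB. For CP the shares were 0.961 and 1.17. On replicates 2 and 3 alone, 6 of the 7 passed as lower, beside 22.8% of all genes, and LCN2 as higher. Over the acute-phase, GPI anchor and transcription factor lists together 13 of 41 genes passed with all libraries, and 3 without iEV replicate 2 or without iEV replicate 3. What made replicate 1 differ was not tested.

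**Figure D4:**
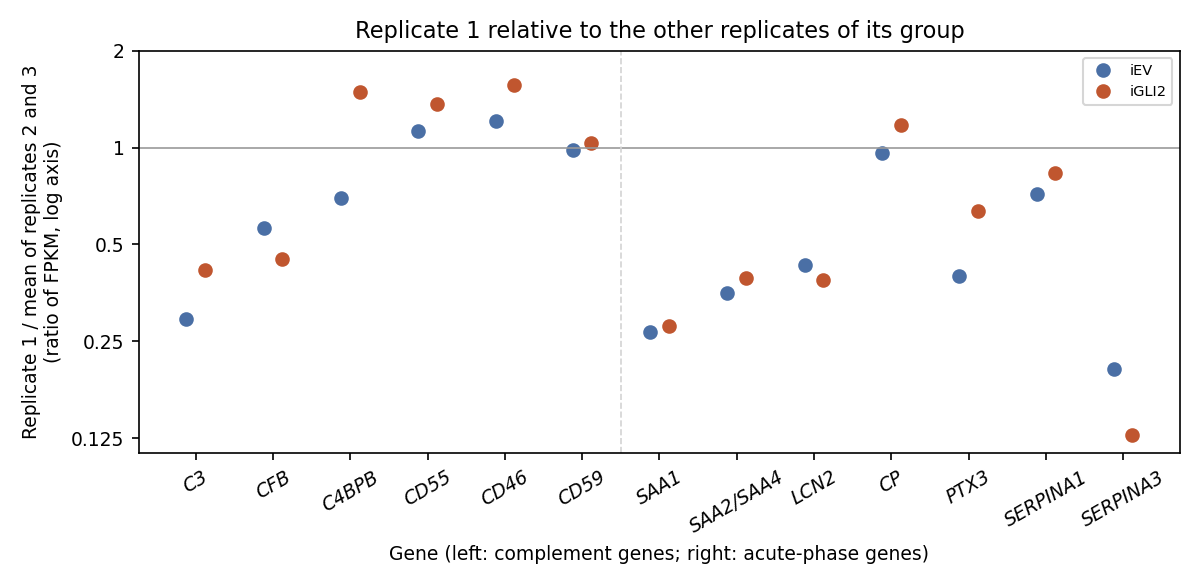
FPKM of replicate 1 divided by the mean of replicates 2 and 3 of its group, on a log axis, for the 6 complement genes tested (left) and the 7 acute-phase genes tested (right), with 1 point per group. C3, CFB, SAA1, the SAA2 and SAA4 entry, LCN2, PTX3, SERPINA1 and SERPINA3 lie below 1 in both groups, CD55 and CD46 above 1 in both, and CD59 near 1.

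C4BPB encodes the beta chain of C4b-binding protein, a secreted inhibitor of the classical route whose beta chain binds protein S. It lies on chromosome 1 from 207262187 to 207273337, on the plus strand. The values were 2.08, 2.69 and 3.27 FPKM in the 3 iEV libraries (replicates 1, 2, 3) and 2.17, 1.58 and 1.35 FPKM in those of iGLI2. The groups overlap through the pair of replicates 1, which were nearly equal. The log2 fold change was -0.45 with a 95% interval from -0.86 to -0.041, which did not pass after adjustment (limma adjusted p = 0.113). On replicates 2 and 3 alone it was -0.69 (standard error 0.11, limma adjusted p = 0.0108), and the adjusted p over the alternatives lay between 0.0108 and 0.288.

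The alpha chain gene C4BPA begins 4269 bases after the end of C4BPB and was far lower. It was listed at 0.0359, 0 and 0.0396 FPKM in iEV and at 0.171, 0.308 and 0.246 FPKM in iGLI2 replicates 1, 2 and 3, too low to be tested. Without the filter on low values it passed as higher (limma adjusted p = 0.0133), with 15.1% of all genes passing. PROS1, the protein S gene, averaged 3.08 and 3.75 FPKM (log2 fold change 0.22, limma adjusted p = 0.187). The stretch of chromosome 1 from C4BPB to CD46 holds 7 entries of the table, all of complement regulators or receptors. Of these CD46, CD55 and C4BPB were above 1 FPKM on average, while CR2, CR1 and CR1L averaged at most 0.213 FPKM in either group.

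C1R and C1S encode the proteases of the first component of the classical route. They are neighbours on chromosome 12, C1S from 7167980 to 7178335 on the plus strand and C1R from 7187515 to 7245043 on the minus strand. C1R had 0.397, 0.655 and 0.736 FPKM in iEV libraries 1 to 3 against 0.522, 0.956 and 0.990 FPKM in iGLI2 libraries 1 to 3. Its iGLI2 library was above the iEV library of the same number in 3 of 3 cases, but the numbers were not taken to pair the samples. The groups overlap. C1S had 0.908, 1.11 and 1.11 FPKM in iEV libraries 1 to 3 against 0.954, 0.962 and 0.800 FPKM in iGLI2 libraries 1 to 3, and the groups overlap. Tested without the filter, the log2 fold changes were 0.19 for C1R (limma adjusted p = 0.440) and -0.10 for C1S (limma adjusted p = 0.413).

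CFI encodes factor I, the protease that inactivates the C3 fragment with CD46 as a cofactor. It lies on chromosome 4 from 110661848 to 110723335, on the minus strand. It was the lowest of the 9, at 0.236, 0.414 and 0.146 FPKM in iEV libraries 1 to 3 against 0.201, 0.488 and 0.455 FPKM in iGLI2 libraries 1 to 3. The groups overlap, and without the filter its log2 fold change was 0.13 (limma adjusted p = 0.527).

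The other genes of the pathway were taken as a list of 53 symbols in 52 entries, of which 12 were listed at 0 in all libraries and 9 entered the test. None was higher and 3 were lower in iGLI2 cells, 33.3% of the 9 beside 21.9% of all genes. When small RNA genes were left out and the libraries rescaled, 3 were higher and 3 lower, the higher being C5, CLU and ITGB2, where 24.8% of all genes passed. Over all genes the share of calls that were higher was 46% as deposited and 59.4% after this rescaling. With both replicates 1 left out, 2 were higher and 4 lower, where 44.5% of all genes passed. The median log2 fold change of the 9 was -0.021.

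**Figure D5:**
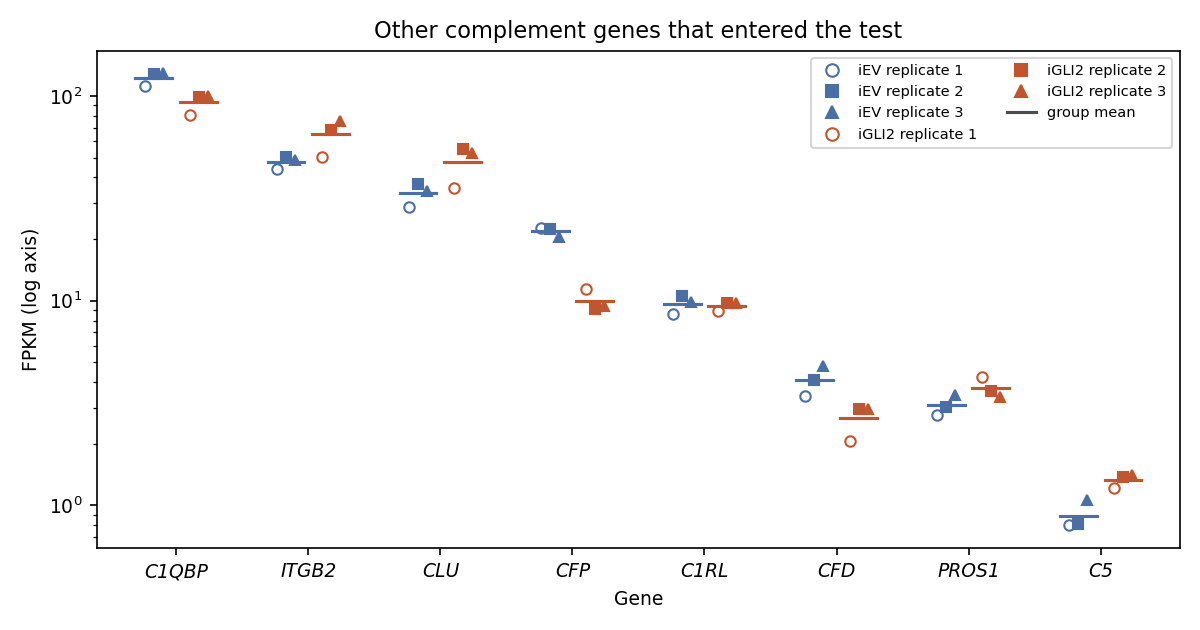
FPKM on a log axis of 8 other complement genes that entered the test, with 1 point per library (open circles mark replicate 1) and a bar for each group mean. CFP has iGLI2 libraries well below the iEV libraries, at 9.12 to 11.4 against 20.6 to 22.8 FPKM.

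The 2 other complement genes listed under the alternative route, CFP and CFD, gave lower values in iGLI2 cells, 1 of them past the threshold. CFP encodes properdin, which stabilises the C3-cleaving enzyme, and had 22.8, 22.4 and 20.6 FPKM in iEV libraries 1 to 3 against 11.4, 9.12 and 9.37 FPKM in iGLI2 libraries 1 to 3. It fell by 1.07 on the log2 scale (standard error 0.095, limma adjusted p = 0.00125). CFD, factor D, which cleaves factor B, had 3.41, 4.11 and 4.80 FPKM and 2.06, 2.97 and 2.97 FPKM, groups that do not overlap (log2 fold change -0.48, limma adjusted p = 0.0713). It passed as lower without both replicates 1 (-0.46, limma adjusted p = 0.0152). For CFD replicate 1 was the lowest library of each group.

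C1QBP, a mitochondrial protein that also binds C1q, also fell, from 123 ± 9.41 to 93.0 ± 10.8 FPKM (SD, n = 3 each, log2 fold change -0.40, limma adjusted p = 0.0466), and missed the threshold without the filter (limma adjusted p = 0.0574). CLU encodes clusterin, a soluble inhibitor of the pore, and had 28.8, 37.2 and 34.3 FPKM in iEV libraries 1 to 3 against 35.7, 55.1 and 52.5 FPKM in iGLI2 libraries 1 to 3. Its log2 fold change was 0.48 (limma adjusted p = 0.123), and 0.58 without both replicates 1 (limma adjusted p = 0.00347). ITGB2, the beta chain of the integrin complement receptors, averaged 47.7 and 64.9 FPKM (log2 fold change 0.42, limma adjusted p = 0.114) and passed as higher without both replicates 1 (0.53, limma adjusted p = 0.00541), while its alpha chains ITGAM and ITGAX stayed under 1 FPKM. C1RL, a protease related to C1r, averaged 9.65 and 9.47 FPKM (limma adjusted p = 0.884), and C5 averaged 0.891 and 1.34 FPKM (limma adjusted p = 0.0820).

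Among the genes too low to be tested, SUSD4, a membrane protein described as a complement inhibitor, had 0.281, 0.216 and 0.246 FPKM in iEV libraries 1 to 3 against 1.48, 1.57 and 1.68 FPKM in iGLI2 libraries 1 to 3. All its iGLI2 libraries were above all iEV libraries, and without the filter it passed as higher (log2 fold change 1.05, limma adjusted p = 4.12e-04). C9, the pore-forming component, averaged 0.257 and 0.122 FPKM and passed as lower without the filter (limma adjusted p = 0.0337). C2, which ends 269 bases before CFB on chromosome 6, averaged 0.328 and 0.419 FPKM, far below its neighbour, and the merged entry of C4A and C4B, near-identical copies, was under 0.05 FPKM in every library. C1QA, C1QB and C1QC were listed at 0 in all 6 libraries. The receptors of the cleavage fragments, C3AR1, C5AR1 and C5AR2, each stayed under 0.3 FPKM.

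CD55 and CD59 both depend on the GPI anchor, so the genes of anchor synthesis were listed as well. All 27 found, of 28 listed, were tested, and 3 were higher and 1 lower in iGLI2 cells, 14.8% beside 21.9% of all genes, with a median log2 fold change of 0.064. PIGP, a subunit of the enzyme of the initial step, went from 64.0 ± 2.23 to 108 ± 6.51 FPKM (SD, n = 3 each, log2 fold change 0.74, limma adjusted p = 0.00138). PGAP1 (0.51, limma adjusted p = 0.0285) and PIGF (0.33, limma adjusted p = 0.0293) were the others that rose, and PGAP2 fell (-0.35, limma adjusted p = 0.0347, and 0.0502 without iGLI2 replicate 1). The most abundant of the others, GPAA1, DPM1 and PIGT, gave 0.19, 0.067 and -0.083 on the log2 scale and did not pass with all libraries (limma adjusted p = 0.170, 0.486 and 0.597). Without both replicates 1, GPAA1 passed as higher (0.29, limma adjusted p = 0.00797). In that comparison 9 of the 27 were higher and 3 lower, beside 21.6% and 22.8% of all genes.

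Of 7 transcription factors known to act at complement genes, all tested, 4 were lower and 1 was higher in iGLI2 cells. Over all genes tested, 11.8% were lower and 10.1% higher. The lower ones were CEBPD, IRF1, NFKB1 and STAT3. CEBPD, a C/EBP factor of the acute-phase response, had 29.0, 44.7 and 43.7 FPKM in iEV libraries 1 to 3 against 11.2, 17.3 and 18.3 FPKM in iGLI2 libraries 1 to 3 (log2 fold change -1.28, limma adjusted p = 0.0155). IRF1, an interferon-regulated activator, fell by 0.72 (limma adjusted p = 0.0218), NFKB1 by 0.48 (limma adjusted p = 0.0422, with 0.0567 without the filter and 0.0533 without iGLI2 replicate 1) and STAT3 by 0.30 (limma adjusted p = 0.0112), all on the log2 scale. RELA (-0.17, limma adjusted p = 0.132) and CEBPB (0.22, limma adjusted p = 0.540) did not pass with all libraries. CEBPB passed as higher without both replicates 1 (0.39, limma adjusted p = 0.00605) and without iGLI2 replicate 1 alone (0.49, limma adjusted p = 0.0297). Without both replicates 1, 2 of the 7 were higher and 4 lower, beside 21.6% and 22.8% of all genes. Replicate 1 had 0.656 and 0.627 of the CEBPD level of the others in iEV and iGLI2 cells, and 0.755 and 0.784 of that of IRF1. For CEBPB the shares were 0.811 and 0.574.

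In the annotation lifted to GRCh37, other genes overlap some of these loci. CD46 is overlapped by the noncoding gene MIR29B2CHG on the opposite strand and by the pseudogene CDCA4P4 on the same strand. On the same strand, C1RL overlaps C1R, a noncoding gene overlaps C3, and read-through genes overlap CFB, CFI and CD59. Fragments of such genes could be included in the values of C3, CD46, C1R, CFB, CFI and CD59. Counting by strand could separate only MIR29B2CHG from CD46. Whether the authors' counting used strand is not given in the sources used here.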

How the data were processed

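RNA was sequenced from 3 iEV and 3 iGLI2 libraries of YAPC cells after 6 days of Dox, prepared with an Illumina TruSeq RNA kit. The authors used Trimmomatic for trimming, tophat2 for alignment (hg19) and cuffdiff for differential expression (Cuffdiff 2.1.1 in the submitters' processing notes), and deposited a value per gene and library. The deposited values were read as FPKM from their form, since the header names no unit. The annotation and the scaling between libraries are not given in the sources used here. Low values gave no shared step between libraries (at most 2.49% of genes in a bin of 1% width), so depth is unknown and no counting interval is given. Columns were matched to samples by title, with 0 value columns left unmatched.

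Of 27024 entries, 1252 lie outside the primary chromosomes. For each name the entry with the highest mean was kept, which left 25442 genes. The 0-based starts of the table were raised by 1. The 12493 genes averaging 1 FPKM or more were tested, two-sided, on log2(FPKM + 1) values. The test was that of limma 3.58.1 (R 4.3.3) with an intensity trend, condition as the only term and Benjamini-Hochberg adjustment over all genes tested, at a threshold of 0.05. The test was tried on simulated data first. Within-library ratios were tested with exact permutation tests over the libraries. Genes were named by rule: all 9 members, other complement genes that were tested, called genes and the most abundant of the neighbouring lists, and the 3 genes most like the member with the largest called increase (no member was called as lower). Genes outside the rule (C4BPA, SUSD4, C9, C2 and others listed as low) were chosen after their values were seen. The alternatives are listed with their effect in the closing section. Some genes of the lists are not reported here, though they stay in the counts. Members and lists were chosen with earlier results of these data known. Python 3.11.15 and matplotlib 3.10.9 were used for tables and plots.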

Additional observations from a re-analysis of the deposited data

How the results depend on the processing

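The alternatives were 3 other scalings, a pseudocount of 0.1, no filter, a filter at 5 FPKM, a block by replicate number or by the digit in the sample code, limma without the trend, an adjusted p under 0.01 and each library left out. Leaving out both replicates 1, with and without the block, was chosen after the data were seen. CD59 and GLI2 kept their direction and stayed past the threshold in all 18 alternatives, with CD59 between 0.72 and 0.83 and GLI2 between 6.60 and 8.27 on the log2 scale. CFB, not called in any of them, turned from -0.17 to 0.19 without iGLI2 replicate 1 and lay between -0.43 and 0.19 over the 6 fits that each omit a library. The causes of these changes were not tested.

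With each library left out, the complement genes called ranged from 1 to 4, the other complement genes from 2 to 5, the acute-phase, GPI and transcription factor genes from 3 to 14, and all genes from 1222 to 3744, and GLI2 from 6.60 to 7.17. Counts moved by over 1.5 times without iGLI2 replicate 1 for complement genes (4) and other complement genes (5). For the other complement genes the count was 2 without iGLI2 replicate 2 or 3. For the acute-phase, GPI and transcription factor genes it was 3 without iEV replicate 2 or 3 and 5 without iGLI2 replicate 2 or 3. For all genes it was 1222 and 1295 without iEV replicate 2 or 3 and 1362 and 1492 without iGLI2 replicate 2 or 3. The differences of log2 ratios ranged from -0.99 to -0.50 for C3 to CFB, -0.057 to 0.045 for CD55 to CD46, 0.87 to 1.21 for CD59 to CD46 and -1.17 to -0.93 for CD55 to CD59. With both replicates 1 left out the counts were 5, 6, 25 and 5562, and with the replicate block added 5, 6, 20 and 4640, against 1, 3, 13 and 2742 with all libraries. An adjusted p under 0.01 left 1095 genes, and 3 of the acute-phase, GPI and transcription factor genes. For the other complement genes the count was 6 after rescaling without small RNA genes, 5 without the filter and 1 with the filter at 5 FPKM, which tests fewer genes.

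Samples of the same replicate number deviated from their group means with correlations of 0.204, 0.0919 and 0.0276 for replicates 1, 2 and 3, so only replicate 1 exceeded 0.1 and the numbers were not taken to pair the samples. With the replicate block, 2 complement genes were called (C3 as lower, limma adjusted p = 0.0269, beside CD59), 6 other complement genes and 3928 of all genes. iEV replicate 2 correlated better with iGLI2 replicate 3 (0.117) than with its own number. The depth is unknown, so counting error could not be given for any gene, C1R, C1S and CFI at or under about 1 FPKM included.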

Other observations

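The genes whose profile was most like that of C3, chosen after its values were seen and by the same measure as for CD59, were CSF2, PTX3 and ZC3H12A. Their root mean square differences from C3 over the 6 libraries were 0.14, 0.16 and 0.18 on the log2 scale. CSF2, which encodes the growth factor GM-CSF, had 4.33, 16.3 and 17.3 FPKM in iEV libraries 1 to 3 against 4.45, 9.28 and 8.92 FPKM in iGLI2 libraries 1 to 3. PTX3 encodes a pentraxin that binds C1q, and had 23.8, 58.8 and 60.5 FPKM in iEV libraries 1 to 3 against 18.5, 32.2 and 25.9 FPKM in iGLI2 libraries 1 to 3. ZC3H12A encodes an RNase that limits inflammatory messages and had 52.9, 113 and 113 FPKM in iEV libraries 1 to 3 against 41.5, 79.9 and 77.9 FPKM in iGLI2 libraries 1 to 3. They were chosen for this likeness, so these values are a description, given with no test.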
